A study of Mus musculus with 19 samples.

Results

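The genes of fatty acid oxidation and ketone metabolism were followed in perigonadal fat of overfed mice. The set held 32 of the 24348 genes listed in the files. They were taken by symbol, by what they are known to do and with earlier results of these data known, as members of the carnitine shuttle, mitochondrial and peroxisomal beta-oxidation, acyl-CoA thioesterases, ketone enzymes and PPAR regulators. The rule itself uses no measured value. Whole fat pads beside the gonads were taken from C57BL/6 mice made to gain weight on either of 2 regimens, giving 19 libraries. HFD fed (n = 4, titled ALO) was sampled at peak weight on a 60% high-fat diet, and HFD fasted (n = 4, titled ALOneg) followed 24 h without feeding. Ensure fed (n = 6, titled OIO) was sampled at peak weight on Ensure, and Ensure fasted (n = 5, titled OIOneg) followed 24 h without feeding. The diets mark whole models of weight gain, and every group had gained weight, so no lean or never overfed group stands beside them. That the libraries of a group are different animals is nowhere stated in the labels, so a p-value here refers only to the spread among these samples, part of which may be technical.

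Fatty acids enter the mitochondrion as carnitine esters, are shortened by rounds of dehydrogenation, hydration, oxidation and thiolysis, and pass their electrons through the electron transfer flavoprotein to the respiratory chain. Peroxisomes shorten the chains that mitochondria handle poorly. Liver turns the resulting acetyl-CoA into ketone bodies during fasting, other tissues burn them, and the nuclear receptors PPAR alpha and PPAR delta switch on many of these genes when fatty acids are plentiful. White fat mainly stores and releases fatty acids, but its adipocytes also carry this machinery.

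Each library had between 12.8 and 22.6 M counts in genes, with a median of 20.2 M. Levels are given as TMM-scaled CPM, the count relative to a library's total. All 12 adipocyte markers were present in every library, and their summed level was 18408 to 50040 CPM. In 5 libraries a list of 15 epididymis and sperm genes stood out, summing to 226 CPM or more and reaching 9912. These were numbers 2 and 5 of Ensure fasted, 10 and 12 of Ensure fed and 24 of HFD fasted, and none of the remaining 14 exceeded 87.1 CPM. The perigonadal depot lies beside the epididymis in male mice. Cdh16, an epithelial cadherin, was at 34.1 to 54.2 CPM in 6 libraries, 3 of them outside those 5 (HFD fed 21, HFD fasted 26 and Ensure fed 16). Calls are given with all libraries, and where leaving out the 5 or all 8 ends the call of a named gene, that is stated. Every HFD library was read in lane 7 per the labels. Of the Ensure fed libraries 1 was read in lane 5, 4 in lane 6 and 1 in lane 7, and of the Ensure fasted libraries 4 in lane 5 and 1 in lane 6.

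Per kilobase of exon, the mitochondrial matrix enzymes stood highest among the 32 genes. The mean over the 19 libraries was 181 CPM per kb for Hadh, the short-chain hydroxyacyl-CoA dehydrogenase, 168 for the long-chain dehydrogenase Acadl, 166 for Etfb, the beta subunit of the electron transfer flavoprotein, and 164 for the medium-chain dehydrogenase Acadm. Oxct1, which activates acetoacetate so that ketone bodies can be burned, was at 121 CPM per kb. Bdh1, which interconverts acetoacetate and beta-hydroxybutyrate, was at 0.528 CPM per kb, so of the ketone pair the first was plentiful and the second scarce. Of the outer-membrane carnitine palmitoyltransferases, Cpt1a was at 51.1 CPM per kb and Cpt1b, the muscle form, at 0.0597. Cpt1b had 0 to 11 counts per library (mean 3.37), did not pass the filter on low counts and was not tested. In the reference annotation, 93.0% of the 50-base windows of its transcript also occur in another gene's transcripts, and the files list a joined Chkb and Cpt1b gene at 0 counts in all 19 libraries, so the low count of Cpt1b is uncertain. The same check found 67.3% of Etfb and 62.4% of Hadhb windows in other transcripts, which leaves the counts of these genes uncertain too. The other 31 genes passed the filter.

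**Figure D1:**
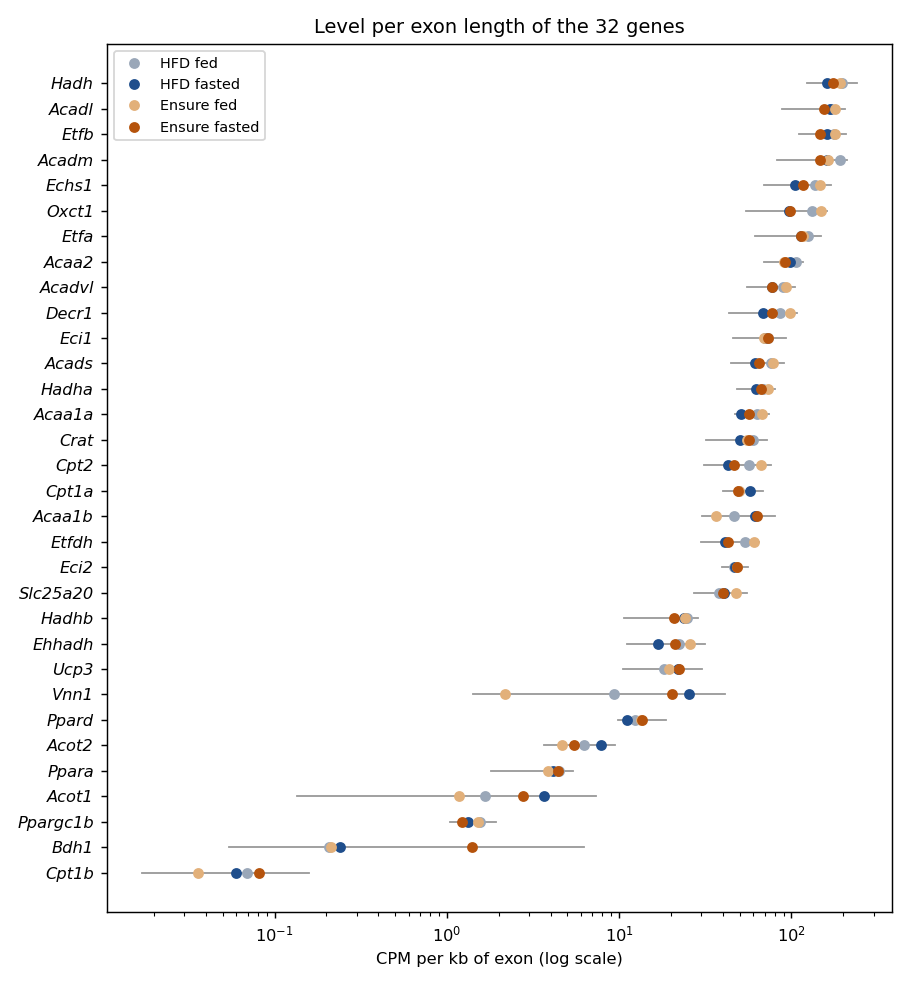
Level of each of the 32 genes in CPM per kb of exon on a log scale. Points are means of the 4 groups (4 libraries each with HFD, 6 fed and 5 fasted with Ensure) and grey lines run from the lowest library above 0 to the highest. Hadh at 181 CPM per kb heads the order, Cpt1b at 0.0597 ends it, and Vnn1, Acot1 and Bdh1 have the widest lines.

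Variation among libraries was modest for most of the genes. The median coefficient of variation over the 31 genes was 14.1% in HFD fed, 17.6% in HFD fasted, 7.38% in Ensure fed and 21.3% in Ensure fasted, beside 14.4%, 25.0%, 11.6% and 23.2% over all 16015 genes tested. In 3 of the groups a single library held most of the lowest values: HFD fed 21 for 24 of the 31 genes, HFD fasted 28 for 21 and Ensure fasted 5 for 22. Each of these libraries also had the lowest adipocyte sum of its group, at 31071, 27446 and 18408 CPM. The macrophage list (10 of 11 listed genes in the files) summed to 11963 CPM in HFD fasted 28, while HFD fasted 23, 24 and 26 held 1667 to 6845 CPM. The smooth muscle list summed to 8657 CPM in Ensure fasted 5 and to at most 1175 CPM elsewhere. In whole tissue, fewer cells of a type and less RNA per cell cannot be told apart.

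After 24 h without food on Ensure, Vnn1 and the peroxisomal thiolase Acaa1b rose, and Cpt2, Etfdh, Acaa1a and Oxct1 fell. The other 25 tested genes, among them the 4 acyl-CoA dehydrogenases and Cpt1a, did not pass. In all, 2 of 31 rose and 4 fell at an adjusted p under 0.05 (edgeR quasi-likelihood test, adjusted over all genes), while 10.6% of all 16015 genes rose and 9.77% fell. The median log2 fold change of the 31 genes was -0.13, against 0.11 over all genes, and 20 of the 31 were negative while 60.5% of all genes were positive. Ensure fasted 5 held the lowest fasted level for 22 of the 31. For 27 of the 31 the 95% interval lay within a 2-fold change in either direction, and the exceptions were Acaa1b, Acot1, Bdh1 and Vnn1. The groups did not overlap for 1 gene that was higher and 4 that were lower, beside 5.68% and 9.28% of all genes.

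**Figure D2:**
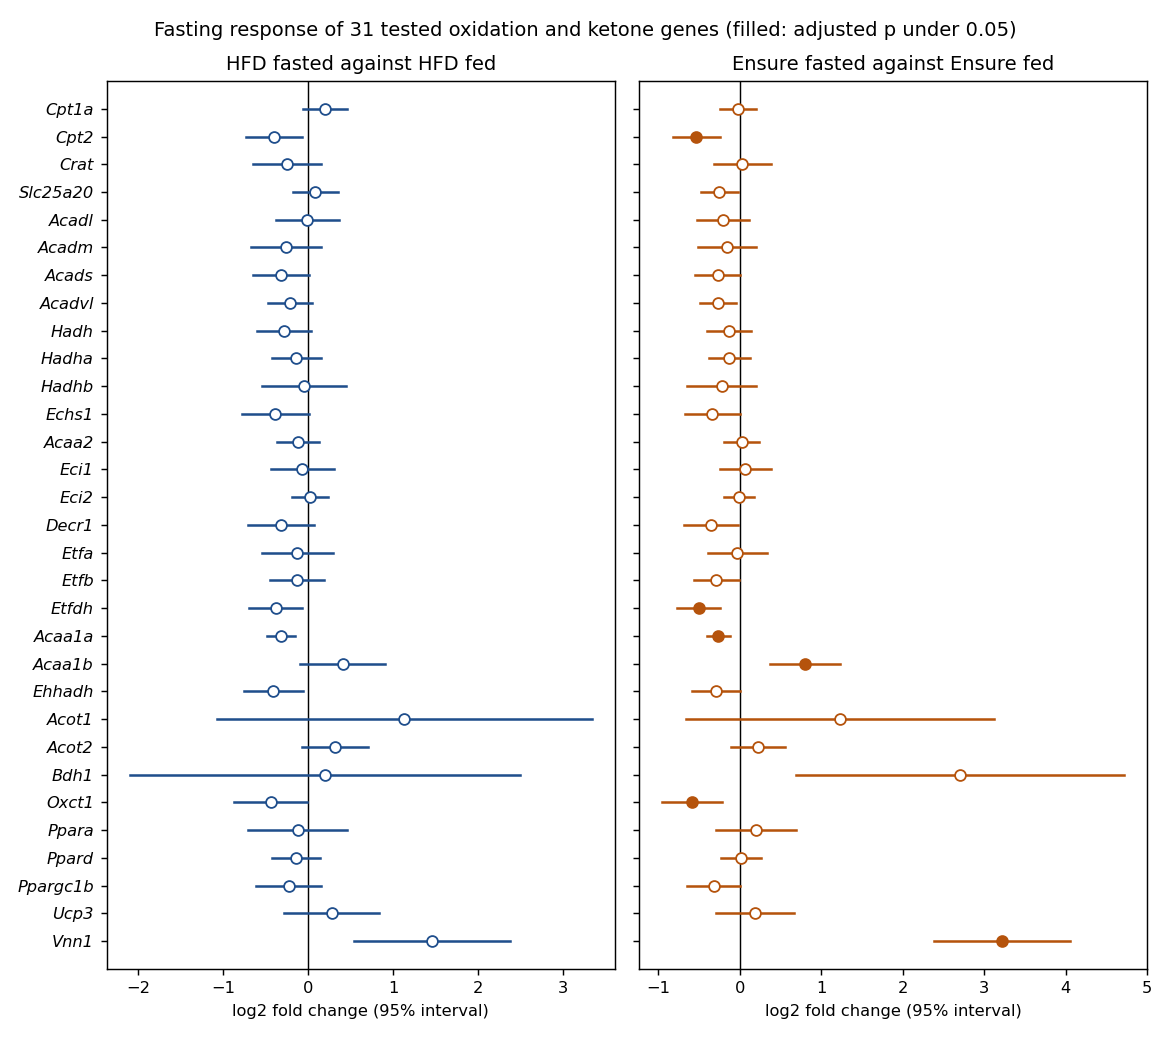
Log2 fold change after 24 h without food with its 95% interval for the 31 tested genes, with HFD on the left (n = 4 and 4) and with Ensure on the right (n = 5 fasted and 6 fed). Filled points passed at an adjusted p under 0.05: none of 31 with HFD, 6 with Ensure, where Vnn1 at 3.22 stands far to the right.

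Vnn1 encodes vanin 1, an enzyme that splits pantetheine into pantothenate and cysteamine and is a known target of PPAR alpha in liver. In Ensure fed libraries Vnn1 was at 3.44 CPM at the lowest, 5.65 at the median and 6.93 at the highest. In Ensure fasted 2, 5, 7, 8 and 17 it was at 46.1, 34.8, 61.4, 41.9 and 62.2 CPM. Every fasted library lay above every fed one. The log2 fold change was 3.22 ± 0.40 (SE, 9.32-fold; edgeR adjusted p = 6.77e-05), and the call held in all 21 alternatives, over which the adjusted p ran from 1.01e-14 to 0.0149. Within lanes, the log2 ratio of mean levels was 2.97 in lane 5 (4 fasted, 1 fed) and 3.65 in lane 6 (1 fasted, 4 fed). Ensure fed 1, in which 6 liver genes summed to 373 CPM, held 5.87 CPM of Vnn1, inside the range of the other fed libraries.

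**Figure D3:**
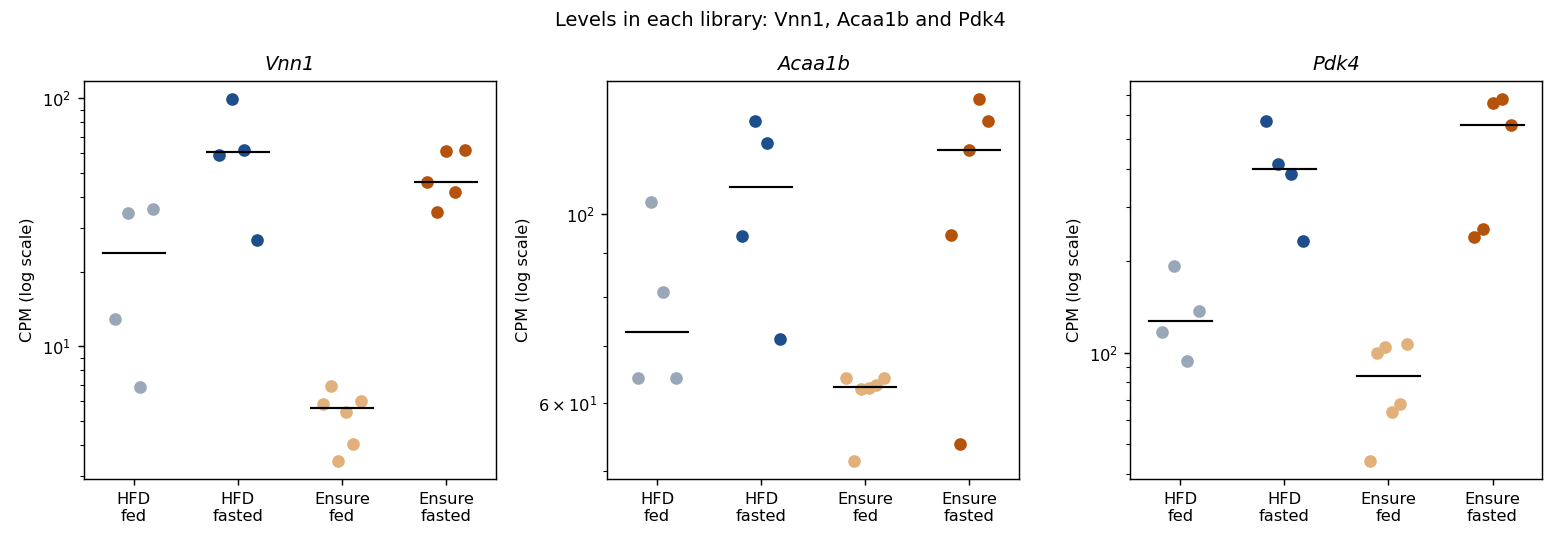
Levels in each library (CPM, log scale) of Vnn1, Acaa1b and Pdk4, with the group median as a line. The 6 Ensure fed libraries lie below all Ensure fasted libraries for Vnn1 (at most 6.93 CPM) and Pdk4, while for Acaa1b Ensure fasted 5 at 53.8 CPM lies among the fed libraries.

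Ucp3, the other gene of the set known chiefly as a responder to PPARs and a mitochondrial carrier of the uncoupling family, did not pass, with a log2 fold change of 0.19 ± 0.23 (edgeR adjusted p = 0.582). Its values were 40.4 to 53.7 CPM in Ensure fed libraries and 50.9, 73.9, 57.6 and 57.4 CPM in Ensure fasted 2, 7, 8 and 17, while Ensure fasted 5 lay below all fed libraries.

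The peroxisomal thiolases, which cut the shortened chain, come as the close copies Acaa1a and Acaa1b, and these moved in opposite directions. Their transcripts are identical at 93.5% of 1638 aligned bases in the reference annotation, while their promoter windows are identical at 63.7% of 262 aligned bases. The windows, 250 bases before to 50 after the RefSeq start in GRCm38.p6, are chr9:119341044-119341343 on the plus strand and chr9:119157044-119157343 on the minus strand. They are printed 5′ to 3′ because the transcripts of the pair are nearly the same and these windows are not. Capitals mark CCAAT on either strand, found 4 times in each; CCAAT was present in 37.4% of all 32851 RefSeq windows of 300 bases.
Acaa1a: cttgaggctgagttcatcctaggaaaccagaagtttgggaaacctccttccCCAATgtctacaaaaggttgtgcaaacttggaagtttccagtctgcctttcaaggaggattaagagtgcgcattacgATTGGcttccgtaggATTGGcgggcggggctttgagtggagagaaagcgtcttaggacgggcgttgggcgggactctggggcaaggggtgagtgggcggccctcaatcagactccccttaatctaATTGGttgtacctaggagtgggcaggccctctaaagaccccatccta
Acaa1b: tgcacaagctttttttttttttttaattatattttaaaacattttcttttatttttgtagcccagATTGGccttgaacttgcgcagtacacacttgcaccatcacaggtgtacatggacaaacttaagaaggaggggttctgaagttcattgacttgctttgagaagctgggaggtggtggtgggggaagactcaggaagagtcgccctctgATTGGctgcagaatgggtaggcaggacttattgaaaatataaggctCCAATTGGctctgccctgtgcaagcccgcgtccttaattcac

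Acaa1b was at 51.3 CPM at the lowest, 62.8 at the median and 64.3 at the highest in Ensure fed libraries. In Ensure fasted 2, 5, 7, 8 and 17 it was at 94.4, 53.8, 119, 136 and 129 CPM. Ensure fasted 5 lay inside the fed range and the other 4 fasted libraries above it. The log2 fold change was 0.80 ± 0.20 (edgeR adjusted p = 0.0118), and with lane as a term it was 0.88 with an adjusted p of 0.0766. Within lanes the log2 ratio of mean levels was 0.65 in lane 5 and 1.11 in lane 6.

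Acaa1a was at 115 to 130 CPM in Ensure fed libraries (median 117) and at 98.2, 91.8, 110, 91.6 and 107 CPM in Ensure fasted 2, 5, 7, 8 and 17, so every fasted library lay below every fed one. The fall was small, with a log2 fold change of -0.26 ± 0.07 (edgeR adjusted p = 0.0126). The ratio of Acaa1b to Acaa1a counts was 0.442 to 0.548 in Ensure fed and 0.587 to 1.49 in Ensure fasted libraries. About a like part of each transcript cannot be assigned: 34.0% of Acaa1a and 35.5% of Acaa1b windows of 50 bases occur in the other, so both counts are uncertain. Ehhadh, the peroxisomal bifunctional enzyme that acts just before the thiolases, did not pass (log2 fold change -0.29 ± 0.14, edgeR adjusted p = 0.153).

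Of the tested carnitine shuttle genes, Cpt2 fell. It encodes the inner-membrane palmitoyltransferase, which returns the fatty acid to CoA inside the mitochondrion. Cpt2 was at 150 to 181 CPM in Ensure fed libraries (median 155) and at 102, 73.9, 131, 125 and 116 CPM in Ensure fasted 2, 5, 7, 8 and 17. No fasted library reached the lowest fed one, and the log2 fold change was -0.53 ± 0.14 (edgeR adjusted p = 0.0121). Cpt1a, the outer-membrane step that malonyl-CoA inhibits, was at 173 to 229 CPM fed and 179 to 244 CPM fasted, and its log2 fold change was -0.02 with a 95% interval from -0.24 to 0.21. Slc25a20, the carrier that swaps acylcarnitine for carnitine, had -0.25 ± 0.11 (edgeR adjusted p = 0.101), and Crat, which makes acetylcarnitine, had 0.03 ± 0.16.

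The 15 genes of the mitochondrial spiral and its electron acceptors were not tested as a group, and 1 of them, Etfdh, passed. Their log2 fold changes ran from -0.50 (Etfdh) to 0.07 (Eci1) with a median of -0.20, and 13 of 15 were negative. Over the alternatives, those of Acadl, Acadm, Hadh, Hadha, Hadhb, Eci2 and Etfa also took values above 0, up to 0.28 for Etfa. Those of Acads, Acadvl, Echs1, Decr1, Etfb and Etfdh stayed below 0 in every alternative. Etfdh is the oxidoreductase that hands electrons from the flavoprotein to ubiquinone. It was at 138 to 157 CPM fed (median 145) and at 97.7, 72.7, 120, 117 and 109 CPM in Ensure fasted 2, 5, 7, 8 and 17. The groups did not overlap, and the log2 fold change was -0.50 ± 0.13 (edgeR adjusted p = 0.0107). The flavoprotein subunits themselves, Etfa at -0.03 ± 0.17 and Etfb at -0.29 ± 0.13, did not pass.

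Among the dehydrogenases, which open each round by chain length, the log2 fold changes were -0.27 for very long chains (Acadvl), -0.20 for long (Acadl), -0.16 for medium (Acadm) and -0.27 for short (Acads), with edgeR adjusted p-values of 0.0856 to 0.528. The trifunctional protein subunits Hadha and Hadhb, whose genes lie head to head with promoter windows sharing 228 bases, had -0.13 ± 0.12 and -0.22 ± 0.20. Hadh had -0.13, the hydratase Echs1 -0.33 and the thiolase Acaa2 0.02. Of the auxiliary enzymes that deal with double bonds, the isomerases Eci1 and Eci2 had 0.07 and -0.0039 and the reductase Decr1 had -0.35. The edgeR adjusted p-values of these genes were 0.122 to 0.980.

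Oxct1 fell as well. It was at 470 to 568 CPM in Ensure fed libraries (median 523) and at 302, 193, 467, 377 and 403 CPM in Ensure fasted 2, 5, 7, 8 and 17. The highest fasted value, 467 CPM, lay just under the lowest fed value of 470, and the log2 fold change was -0.58 ± 0.17 (edgeR adjusted p = 0.0269). Leaving out Ensure fed 12 moved the adjusted p to 0.0545.

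**Figure D4:**
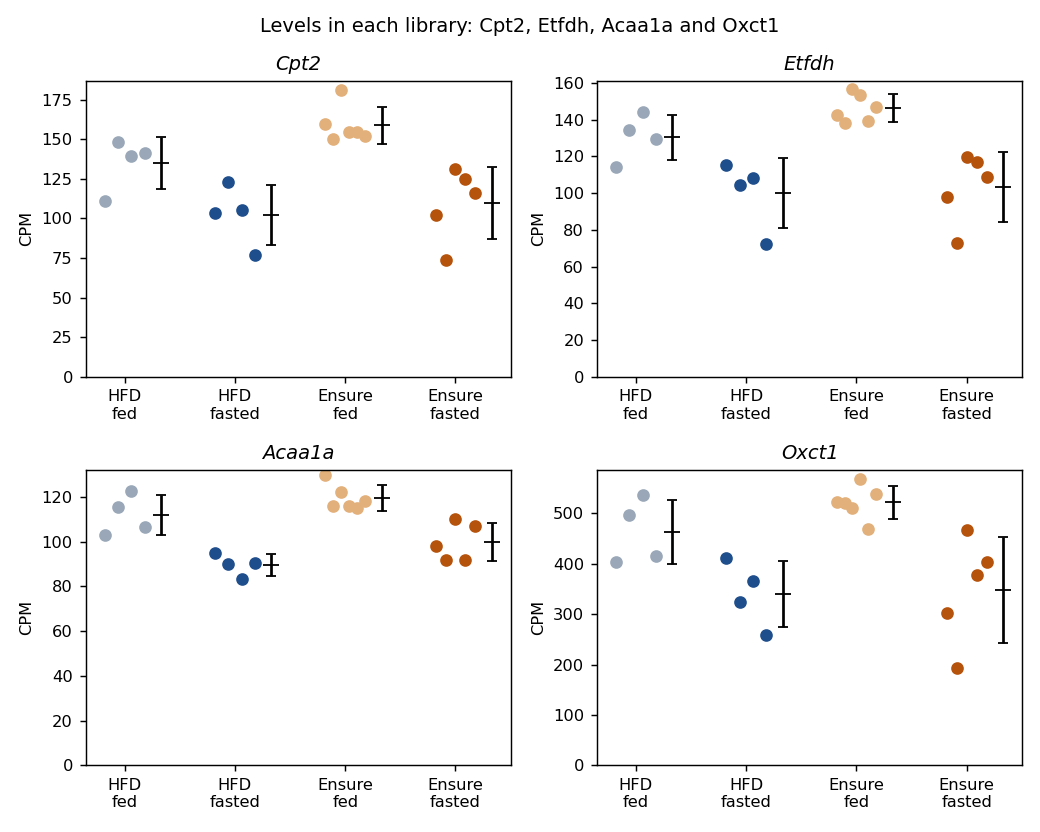
Levels in each library (CPM) of Cpt2, Etfdh, Acaa1a and Oxct1, with the mean and SD of each group beside the points. In the Ensure model every fasted library lies below every fed one for all 4 genes, for Oxct1 by the narrow gap of 467 against 470 CPM.

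These 4 lower calls ended with lane as a term, where the log2 fold changes of Cpt2, Etfdh, Acaa1a and Oxct1 were -0.51, -0.46, -0.27 and -0.50 (edgeR adjusted p = 0.139, 0.154, 0.115 and 0.261), and without the 5 tract-rich libraries, where they were -0.32, -0.31, -0.23 and -0.32 (adjusted p = 0.132, 0.199, 0.152 and 0.255). They also ended without the 8 libraries (adjusted p = 0.128, 0.226, 0.178 and 0.252). Within lane 5 the log2 ratios of mean levels were -0.56, -0.48, -0.41 and -0.65, and within lane 6 they were -0.46, -0.43, -0.13 and -0.36. Tract-rich libraries enter both sets of ratios, Ensure fasted 2 and 5 in lane 5 and Ensure fed 10 and 12 in lane 6. The adipocyte list had 3 of its 12 genes lower and none higher in the same contrast, with a median log2 fold change of -0.32, and its sum ran from 41897 to 49146 CPM fed and from 18408 to 50040 CPM fasted. The brown or beige fat list, which includes Ppargc1a, had 3 of its 8 tested genes lower, and its sum of 19.9 to 41.6 CPM fasted lay below all fed sums (58.5 to 103 CPM); Zic1 was at 0 in 18 libraries and Ucp1 at 18.4 CPM at most. The smooth muscle list had 7 of 8 genes higher. Its sum was 8657 CPM in Ensure fasted 5 and 692 to 1175 CPM in the other fasted libraries, against 609 to 814 fed. The stromal progenitor list had 3 of 6 genes higher (Pdgfra, Dpp4 and Pi16), at 2183 to 3736 CPM fasted against 2008 to 2830 fed, and the skeletal muscle list 2 of 8, at 46.4 to 341 CPM against 21.8 to 47.5. The part of cell content or tract reads in these falls was not tested.

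Bdh1 and Acot1 had large fold changes that rested on single libraries or followed an epithelial gene. Bdh1 was at 0.447 to 0.998 CPM in Ensure fed libraries and at 1.47, 22.8, 0.301, 0.198 and 0.609 CPM in Ensure fasted 2, 5, 7, 8 and 17. Ensure fasted 5 stood far above all others. Of the remaining fasted values 1.47 CPM lay above the fed range, 0.609 inside it, and 0.301 and 0.198 below it. The log2 fold change of 2.71 ± 0.95 (edgeR adjusted p = 0.0537) became -0.30 without Ensure fasted 5. It passed in 4 of 19 alternatives, among them without Ensure fasted 7, 8 or 17, with an edgeR adjusted p of 0.0252 at the lowest. The PPAR coactivator gene Ppargc1b and the receptors Ppara and Ppard did not pass either, at -0.32 ± 0.16, 0.20 ± 0.24 and 0.02 ± 0.12 (edgeR adjusted p = 0.151, 0.567 and 0.907).

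Acot1 and Acot2 split acyl-CoA into free fatty acid and CoA, Acot1 in the cytosol and Acot2 in mitochondria. Acot1 was at 9.10 to 16.6 CPM in the 6 Cdh16-rich libraries (HFD fed 21, HFD fasted 24 and 26, Ensure fed 16, Ensure fasted 2 and 5) and at 0.308 to 3.51 CPM in the other 13. These ranges did not touch, and Acot1 was the 1 gene of the 32 for which that was so. How many of all genes this split separates was not counted, so the 1 of 32 has no background beside it. Bdh1 came close, at 0.982 to 22.8 CPM in the 6 and 0.198 to 0.998 CPM in the 13. Acot2 was at 11.9 to 20.7 CPM in the 6 and at 8.10 to 19.2 CPM in the 13. The 12-gene tract and mesothelial epithelium list, all 12 in the files, summed to 95.3 to 443 CPM in HFD fed, 74.4 to 676 in HFD fasted, 96.2 to 439 in Ensure fed and 94.1 to 1153 in Ensure fasted libraries. Of its defining genes, Pax8 and Dcdc2a were each at 0 in 1 library. The part of epithelial cells in the level of Acot1 was not tested, and the log2 fold change of Acot1 in the Ensure model, 1.23 ± 0.89 (edgeR adjusted p = 0.335), was -1.37 at the lowest over the alternatives.

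**Figure D5:**
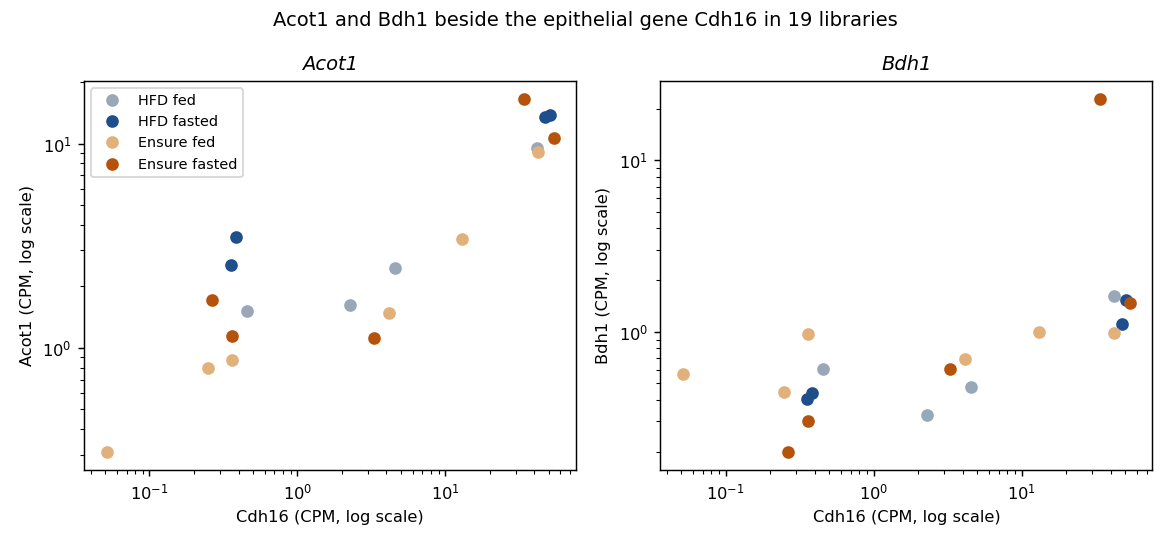
Acot1 (left) and Bdh1 (right) in CPM against Cdh16 in CPM, both on log scales, for the 19 libraries coloured by group. The 6 libraries with Cdh16 of 34.1 CPM or more hold the 6 highest Acot1 values, and Bdh1 reaches 22.8 CPM in 1 of them, Ensure fasted 5.

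The promoter windows of Acot1, chr12:84009252-84009551, and Acot2, chr12:83987611-83987910, both on the plus strand of GRCm38.p6 and taken from RefSeq, are shown because these neighbouring copies differed across libraries. They are identical at 59.4% of 261 aligned bases, and the transcripts at 82.6% of 2004. Capitals again mark CCAAT on either strand, 1 in each.
Acot1: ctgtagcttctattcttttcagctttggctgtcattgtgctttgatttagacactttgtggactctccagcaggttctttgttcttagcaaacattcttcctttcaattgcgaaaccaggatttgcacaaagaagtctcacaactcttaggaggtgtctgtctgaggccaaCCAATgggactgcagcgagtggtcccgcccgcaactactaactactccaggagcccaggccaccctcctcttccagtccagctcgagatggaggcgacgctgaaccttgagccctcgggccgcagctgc
Acot2: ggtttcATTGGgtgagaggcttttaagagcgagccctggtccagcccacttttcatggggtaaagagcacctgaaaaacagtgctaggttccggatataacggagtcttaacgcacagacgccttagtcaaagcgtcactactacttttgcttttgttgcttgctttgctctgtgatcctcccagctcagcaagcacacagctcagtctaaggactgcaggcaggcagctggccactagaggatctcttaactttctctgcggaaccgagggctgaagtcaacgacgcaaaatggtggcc
Since 33.2% of Acot1 and 27.7% of Acot2 windows of 50 bases occur in other genes' transcripts, the counts of both are uncertain.

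RefSeq windows were found for 26 of the 32 genes and searched on both strands for a PPAR-type repeat, its half-site and CCAAT. The PPAR-type direct repeat (AGGTCA, 1 base of any kind, AGGTCA) was present in 0 of 26 and in 0.0396% of all 32851 windows. Its half-site AGGTCA, which any such repeat also holds, was present in Acadm, Acadvl, Cpt1a, Echs1 and Ucp3, 5 of 26 (19.2%), against 16.3% of all windows. CCAAT was present in 12 of 26 (46.2%), against the 37.4% given above. The median GC content was 60.3% for the 26 and 52.7% for all windows. A match says only that the letters are present in that window. The exact repeat is so rare in such windows that 0 of 26 says nothing about these genes.

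Fasting on HFD gave no call among the 31 genes. The largest fold change was again that of Vnn1, and the nearest to the threshold was Acaa1a. At an adjusted p under 0.05, 0 of 31 rose and 0 fell (edgeR), beside 0.187% and 1.03% of all genes, and at an unadjusted p under 0.05, 1 was higher and 5 lower, beside 5.76% and 9.07%. DESeq2 called Vnn1 higher and Acaa1a lower, and limma voom with sample weights called 9 of the 31, beside 3.99% and 18.6% of all genes. The median log2 fold change was -0.13, against 0.06 over all genes, with 22 of the 31 negative, and 28 of the 31 intervals lay within a 2-fold change. The groups did not overlap for 0 higher genes and 1 lower gene, beside 2.24% and 6.21% of all genes.

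Vnn1 was at 12.8, 34.6, 6.85 and 35.7 CPM in HFD fed 21, 22, 25 and 27 and at 59.3, 99.4, 61.8 and 26.8 CPM in HFD fasted 23, 24, 26 and 28. HFD fasted 28 lay within the fed range and the other 3 above it. The log2 fold change was 1.46 ± 0.44 (edgeR adjusted p = 0.121). It was 0.73 (edgeR adjusted p = 0.388) without the 8 tract- or Cdh16-rich libraries, which leaves 3 fed and 2 fasted.

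Acaa1a was at 103, 115, 123 and 106 CPM in HFD fed 21, 22, 25 and 27 and at 94.9, 90.0, 83.2 and 90.2 CPM in HFD fasted 23, 24, 26 and 28. Its groups did not overlap, and the log2 fold change was -0.32 ± 0.08 (edgeR adjusted p = 0.0559). The copy Acaa1b was at 64.2, 103, 81.1 and 64.2 CPM fed and at 94.2, 129, 121 and 71.4 CPM fasted, with overlap and a log2 fold change of 0.41 ± 0.24 (edgeR adjusted p = 0.434).

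Cpt2, Etfdh, Ehhadh and Oxct1 had log2 fold changes of -0.40 ± 0.16, -0.38 ± 0.15, -0.41 ± 0.17 and -0.44 ± 0.20 (edgeR adjusted p = 0.243, 0.225, 0.256 and 0.319). For Oxct1 the fed values were 403, 496, 536 and 415 CPM and the fasted values 412, 325, 367 and 259 CPM, and 1 fasted library lay above the lowest fed one. HFD fasted 28 had the lowest level of all 4 genes among the fasted libraries. Cpt1a was 0.20 ± 0.12, and the 4 acyl-CoA dehydrogenases ran from -0.32 (Acads) to -0.01 (Acadl). The HFD and Ensure libraries are separate samples, but the description of both responses rests on 1 shared estimate of the spread.

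Whether the fasting response differed between the models was tested directly. None of the 31 genes was called in the difference of the responses, 0 higher and 0 lower, beside 0% and 0% of all genes (edgeR). At an unadjusted p under 0.05 Vnn1 was higher and no gene lower, beside 4.79% and 2.92% of all genes. DESeq2 called 0 of the 31 and limma voom with sample weights 2, Vnn1 and Acaa2, beside 0.406% and 7.31% of all genes. For Vnn1 the Ensure fold change exceeded the HFD one by 1.76 ± 0.57 log2 units (95% interval 0.55 to 2.97; edgeR adjusted p = 0.525). For 26 of the 31 genes the interval of the difference lay within a 2-fold change, so differences smaller than that are not bounded here.

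Between the fed groups Vnn1 was lower with Ensure, and no other gene of the 31 passed. It was called as the 1 lower gene and 0 were higher (edgeR), beside 2.17% and 2.09% of all genes. The Ensure fed values of 3.44 to 6.93 CPM compare with 12.8, 34.6, 6.85 and 35.7 CPM in HFD fed 21, 22, 25 and 27, so HFD fed 25 touched the upper end of the Ensure range. The log2 fold change was -2.09 ± 0.40 (edgeR adjusted p = 0.00783), a level 4.25-fold lower. Without the 8 tract- or Cdh16-rich libraries it was -2.02 (adjusted p = 0.0907), and with lane as a term -1.90 (adjusted p = 0.9996). The fit with lane as a term called 0.0125% of all genes. In lane 7, which alone held both models, the single Ensure fed library (18) was at 6.01 CPM, below each of the 4 HFD fed libraries. The macrophage list had 4 of its 10 tested genes lower with Ensure, at 1634 to 2782 CPM in sum against 2098 to 4296 CPM in HFD fed libraries, and its part in the Vnn1 difference was not tested.

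The carnitine carrier Slc25a20 was at 79.0 to 97.9 CPM in Ensure fed and 59.7 to 71.8 CPM in HFD fed libraries, without overlap. Its log2 fold change of 0.32 ± 0.11 did not pass (edgeR adjusted p = 0.126). Cpt2 was the other of 2 genes higher without overlap, at 150 to 181 CPM in Ensure fed and 111 to 148 CPM in HFD fed libraries. Its log2 fold change of 0.23 did not pass either. The share of all genes without overlap between the fed groups is not given here. Acot2 at -0.43 ± 0.17 and Acaa2 at -0.24 ± 0.11 did not pass (edgeR adjusted p = 0.168 and 0.229). The median over the 31 genes was 0.03, against -0.04 over all genes.

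After fasting the models did not differ detectably in these genes. Of the 31, 0 were higher and 0 lower with Ensure (edgeR), beside 1.63% and 1.19% of all genes. At an unadjusted p under 0.05, 3 were higher (Ehhadh, Bdh1 and Ppard) and 1 lower (Acot2), beside 10.7% and 9.59% of all genes. DESeq2 called 0 and limma voom with sample weights 6, beside 8.09% and 21.3% of all genes. Vnn1 had a log2 fold change of -0.33 with a 95% interval from -1.18 to 0.52. No lane held fasted libraries of both models, so lane and model cannot be told apart there.

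The surrounding pathway was read from 82 further genes, of which 78 were tested. After fasting with Ensure 14 of them rose and 12 fell (edgeR), beside 10.6% and 9.77% of all genes. Their median log2 fold change was 0.06, against 0.11 over all genes. With lane as a term 5 rose and 2 fell, without the 5 tract-rich libraries 10 and 5 of 73 tested, and without the 8 libraries 7 and 3 of 72. In these fits 4.75%, 7.36% and 5.06% of all genes were called.

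Pdk4, which shuts off pyruvate oxidation, rose by 2.56 ± 0.33 on the log2 scale, from 44.0 to 107 CPM fed to 239, 254, 657, 678 and 559 CPM in Ensure fasted 2, 5, 7, 8 and 17. The carnitine transporter Slc22a5 rose by 0.97, the fatty acid transporter Slc27a1 by 1.26, Txnip by 0.97 and the dehydrogenase Acad10 by 0.68 on the log2 scale. Falls were led by Acad9 (-0.85), a dehydrogenase also needed to assemble respiratory complex I, the peroxisomal CoA hydrolase Nudt7 (-0.99), the peroxisomal carrier Slc25a17 (-0.45), the peroxisomal importer Abcd3 (-0.44), the acetoacetate-activating enzyme Aacs (-0.68) and the estrogen-related receptor Esrra (-0.54). Acsl1, which activates fatty acids to acyl-CoA, fell by 0.76 on the log2 scale. The edgeR adjusted p-values of these genes were 2.83e-05 to 0.0185. The calls of Pdk4, Slc22a5, Slc27a1, Txnip and Acad9 held in all 21 alternatives. Those of Acsl1, Aacs and Esrra ended without the 5 tract-rich libraries, without the 8 and with lane as a term. Those of Acad10, Abcd3 and Slc25a17 ended without the 8 and with lane as a term, and that of Nudt7 without the 8.

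The coactivator Ppargc1a had a log2 fold change of -0.34, the lipase inhibitor Angptl4 -0.10 and malonyl-CoA decarboxylase Mlycd -0.08, and none of these 3 passed. The acetyl-CoA carboxylase Acacb, which makes malonyl-CoA at the mitochondrial surface, had 0.76 ± 0.31 (edgeR adjusted p = 0.0859).

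After fasting with HFD 2 of the 78 genes rose, the lipid droplet genes Plin5 (1.08 ± 0.24) and Hilpda (1.31 ± 0.27), and 2 fell, Acad9 (-0.59 ± 0.11) and Aacs (-0.82 ± 0.19), with edgeR adjusted p-values of 0.0151 to 0.0482. Over all genes 0.187% rose and 1.03% fell. Of 18 alternatives, the call ended in 12 for Plin5, 14 for Aacs, 8 for Hilpda and 2 for Acad9, and all 4 calls ended with the 2 groups alone or without HFD fed 25. In the last 2 fits 0.00671% and 0.14% of all genes were called. Without the 5 tract-rich libraries those of Plin5, Hilpda and Aacs ended, and without the 8 that of Plin5. Plin5 was also called higher after fasting with Ensure (0.91 ± 0.20, edgeR adjusted p = 0.00514), and Hilpda was not. That Ensure call of Plin5 ended in 1 of 21 alternatives, with lane as a term. Pdk4 was at 117, 192, 93.7 and 137 CPM in HFD fed 21, 22, 25 and 27 and at 575, 416, 387 and 232 CPM in HFD fasted 23, 24, 26 and 28. Its groups did not overlap, and its log2 fold change was 1.58 ± 0.38 (edgeR adjusted p = 0.0518).

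No gene of the 78 was called by edgeR in the difference of the responses, beside 0% of all genes, and Pdk4 had 0.98 ± 0.49 (edgeR adjusted p = 0.665). DESeq2 called 1 higher and 1 lower of 69, beside 0.406% of all genes. Between fed groups 4 of the 78 were higher with Ensure (Slc27a4, Pex11a, Slc25a17 and Aacs) and 4 lower, among them Acsl5, Bdh2 and Txnip, beside 2.09% and 2.17% of all genes. With lane as a term none of the 8 calls remained, 0 higher and 0 lower, and only 0.0125% of all genes were called in that fit. Pex11a and Txnip were not called without the 5 tract-rich libraries, nor were these and Acsl5 and Bdh2 without the 8. Leaving out HFD fed 27 ended the calls of Slc27a4, Pex11a, Acsl5, Bdh2 and Txnip. After fasting, 2 of the 78 were higher with Ensure, Slc27a4 (0.76) and Aacs (1.22), and 1 was lower, Hilpda (-1.66), beside 1.63% and 1.19% of all genes. Their edgeR adjusted p-values were 0.00296 to 0.0215. All 3 calls ended with lane as a term and with the 2 groups alone, fits that called 0% and 0.00648% of all genes. That of Slc27a4 also ended without HFD fasted 23 or 28.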

How the data were processed

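RNA from whole perigonadal fat was extracted with an RNeasy kit, poly-A selected, prepared with a TruSeq kit and sequenced on a HiSeq2000, per the labels' protocols. The submitters' processing notes name HTSeq 0.6.1, TopHat2 2.1, bcl2fastq 1.8.4 and build mm9; how strand was handled is not given in the sources used here. Raw read counts by gene symbol, 1 file per library, were deposited by the authors. The 5 HTSeq summary lines were kept out of sizes and tests (reads outside genes 13.0 to 17.3%, ambiguous reads 0.695 to 0.893%).

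All 19 libraries were fitted together with edgeR 4.0.16 (R 4.3.3; TMM scaling, filterByExpr at a minimum count of 10, glmQLFTest), which kept 16015 genes, with Benjamini-Hochberg adjustment over all of them and calls at 0.05. Standard errors are the log2 fold change over the square root of F. Chi-square values per gene between the 37 pairs of libraries within groups were 7.04 to 288, so none was counted as a repeat. The test was checked on counts simulated from the fitted spread. These held no lane, tract or cell content differences, so the check does not bear on those. Alternatives were other scalings and filters, DESeq2 1.42.0, limma 3.58.1 voom with sample weights, lane as a term, the 2 groups alone, and libraries left out.

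The 32 genes, the 82 further genes, the marker lists and the libraries left out were chosen with earlier results of these data known. All 32 are named; of the 82, up to 6 called genes per direction and contrast by smallest p, plus a set list that includes Acsl1, Ppargc1a, Pdk4, Angptl4, Acacb and Mlycd; some genes that this rule names are not reported here. Exon lengths and shared windows come from GENCODE M21, a later build than the counts; no coordinates of the counts are printed.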

Additional observations from a re-analysis of the deposited data

Results flagged for a closer look

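In each group of 4 to 6 libraries, the highest and lowest value of every gene was compared with its nearest neighbour by Dixon's ratio at the 95% level. Of 128 sets of a gene and a group, 11 held a library that stood apart, and chance gives about 1 in 20. Libraries of high level were Ensure fed 10 for Cpt2 (181 CPM, the others 150 to 160) and Slc25a20 (97.9 CPM, the others 79.0 to 85.0), Ensure fed 16 for Ppara (18.8 CPM, the others 11.4 to 13.7) and Acot1 (9.10 CPM, the others 0.308 to 3.40), HFD fed 21 for Acot1 (9.53 CPM, the others 1.52 to 2.47), and Ensure fasted 5 for Bdh1 (22.8 CPM, the others 0.198 to 1.47) and Ppard (60.9 CPM, the others 37.6 to 43.2). Libraries of low level were Ensure fed 9 for Cpt1a (173 CPM, the others 216 to 229) and Acaa1b (51.3 CPM, the others 62.3 to 64.3), HFD fed 21 for Slc25a20 (59.7 CPM, the others 70.6 to 71.8), and HFD fasted 28 for Hadh (237 CPM, the others 305 to 310).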

How the results depend on the processing

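The number of the 31 genes called was 0 with HFD fasting, 6 with Ensure fasting, 0 in the difference, 1 between fed and 0 between fasted groups. With HFD fasting it was 1 without a filter and 2 with DESeq2, where 0.771% and 3.99% of all genes were called. It was 9 with limma voom (18.6% of all genes) and 2 without the 8 tract- or Cdh16-rich libraries (5.96%). With Ensure fasting it was 1 with lane as a term and 2 without the 5 or the 8 libraries, and 5 to 10 with any 1 library left out (10 without Ensure fasted 7). The shares of all genes called in these fits were 4.75%, 7.36% and 5.06%, and 14.3% to 23.8% with 1 library left out. In the difference it was 2 with limma voom (7.31% of all genes). Between fed groups it was 2 with library size alone (5.33% of all genes), 2 with DESeq2 (9.68%) and 7 with limma voom (34%). It was 3 with the 2 groups alone (19.8%), 0 with lane as a term (0.0125%) and 0 without the 8 libraries (1.4%). With any 1 library left out it was 1 to 2 (1.46% to 5.34% of all genes), and 2 without HFD fed 25. Between fasted groups it was 6 with limma voom (21.3% of all genes) and 1 without the 8 libraries (10.5%). Fewer libraries enter each fit that leaves some out; other causes of these shifts were not tested. Of the 78 further genes, limma voom called 14 higher and 10 lower with HFD fasting, 25 and 18 with Ensure fasting, 6 and 5 in the difference, 14 and 19 between fed and 12 and 9 between fasted groups. Its shares of all genes, in the same order, were 18.6%, 35.2%, 7.31%, 34% and 21.3%. None of the genes called with all libraries reversed direction under an alternative; Bdh1 with Ensure fasting, called in 4 of 19 alternatives, ran from -0.997 to 3.01 on the log2 scale. No paired analysis was possible because the groups share no replicate numbers. Depth limits Cpt1b and, at under 2 CPM in all libraries but 1, Bdh1.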
